A study of Mus musculus with 9 samples.

Results

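The genes described here are 47 genes of G2 phase and mitosis, taken by symbol from a set that spans the CDK1 kinase and its cyclins, the other mitotic kinases, the spindle checkpoint, the anaphase-promoting complex or cyclosome (APC/C), the centromere, the spindle, cytokinesis and chromosome structure. All 47 were found among the 53379 gene identifiers counted in each library, and all 47 were among the 19572 genes that passed the filter on low counts. RNA came from GFP-positive cells sorted from the forebrain of C57Bl6DBa2 mouse embryos at E16.5, 2 days after in utero electroporation at E14.5. The GemC1 group carried pCAGGS-GemC1, the Mcidas group carried pCAAGS-Mcidas, and the GFP group carried the H2B-GFP plasmid without either factor, with 3 libraries in each group. Electroporation, sorting and the fluorescent reporter were common to the 3 groups. pCAGGS drives expression in most cell types, and the labels do not say how many embryos were pooled in a library. Total counts were 28515241 to 30288663 in GemC1 libraries, 22914704 to 34860313 in Mcidas libraries and 34417359 to 41163917 in GFP libraries.

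G2 and mitosis are run by CDK1, which needs a cyclin A or cyclin B partner, is held back by WEE1 and is released by the CDC25 phosphatases. Mitosis ends when the APC/C, a ubiquitin ligase switched on by CDC20 and then by CDH1 (the product of Fzr1), marks cyclins and securin for destruction. EMI1 (Fbxo5) and EMI2 (Fbxo43) inhibit that ligase. GemC1 and Mcidas are geminin-related proteins that start the multiciliated cell programme. Cells on that path have left the cell cycle, and it is known from cultured ependymal progenitors that they use a damped form of the CDK1 and APC/C oscillator while they multiply centrioles. The comparison therefore addresses how much of the mitotic gene set moves in forebrain cells given either factor.

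The labels held for the plasmids. Gmnc, the gene of GemC1, stood at 291, 223 and 317 CPM (counts scaled to TMM-adjusted library sizes) in GemC1 libraries, at 9, 0 and 6 counts in Mcidas libraries and at 0 counts in each GFP library. Mcidas stood at 387.5, 507.5 and 597 CPM in Mcidas libraries and at 0.647, 0.663 and 0.69 CPM in GFP libraries. It stood at 76.8, 60.3 and 73.1 CPM in GemC1 libraries, which were not labelled with an Mcidas plasmid. Foxj1, the master regulator of motile cilia, was 120 ± 20.2 CPM in GemC1 libraries, 149.8 ± 47.2 CPM in Mcidas libraries and 1.03 ± 0.507 CPM in GFP libraries (SD, n = 3 each). The cells, labelled neural progenitors, also carried neuronal RNA: Dcx, a microtubule protein of young neurons, averaged 862 CPM in GemC1, 967 CPM in Mcidas and 1114 CPM in GFP libraries. Names of the Mcidas count files hold a different year code from the GemC1 and GFP ones; whether it is a batch is not stated in the labels, and a batch of that kind cannot be told apart from the Mcidas group.

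Of the 47 genes, 4 were called in any comparison, all of them higher with a factor. Ccna1 and Fbxo43, both best known from the germ line, rose with GemC1 and with Mcidas. Cdk1 rose with GemC1, and Nek2, a centrosome kinase, rose with Mcidas. The other 43 genes, the B-type cyclins, Plk1, the Aurora kinases and the spindle checkpoint among them, were not called in any of the 3 comparisons. Calls were made at a Benjamini-Hochberg adjusted p under 0.05 in edgeR's quasi-likelihood test over all genes tested. Each factor was compared with the same 3 GFP libraries, so the 2 sets of values share their controls.

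In GemC1 against GFP, 3 members were called higher and 0 lower. That is 6.38% of the 47, beside 5.19% of all genes tested (3.86% called higher and 1.32% lower), so the share called was close to that of all genes. In Mcidas against GFP, 3 members were also called higher and 0 lower, beside 4.35% of all genes tested (4.03% higher, 0.327% lower), again a share near the background. Among the 3 in each comparison is Fbxo43, which passed the low-count filter through the libraries with a factor. At an unadjusted p under 0.05 there were 10 members in GemC1 (19.5% of all genes tested), 1 of them lower, and 8 in Mcidas (12.6%), 2 of them lower, and DESeq2 called 0 and 1 lower (3.1% and 0.496% of the genes with a DESeq2 adjusted p). DESeq2 called 5 members higher in GemC1 and 4 in Mcidas, beside 5.5% and 4.7% of those genes. The median log2 fold change of the 47 was 0.09 in GemC1 and -0.03 in Mcidas, against -0.00 and -0.03 for all genes tested. It was positive for 31 of the 47 in GemC1 (66%, against 49.9% of all genes tested) and for 22 in Mcidas (46.8%, against 45%). GFP replicate 3 was the lowest GFP library for 41 of the 47, and its part in these shares was not tested.

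**Figure D1:**
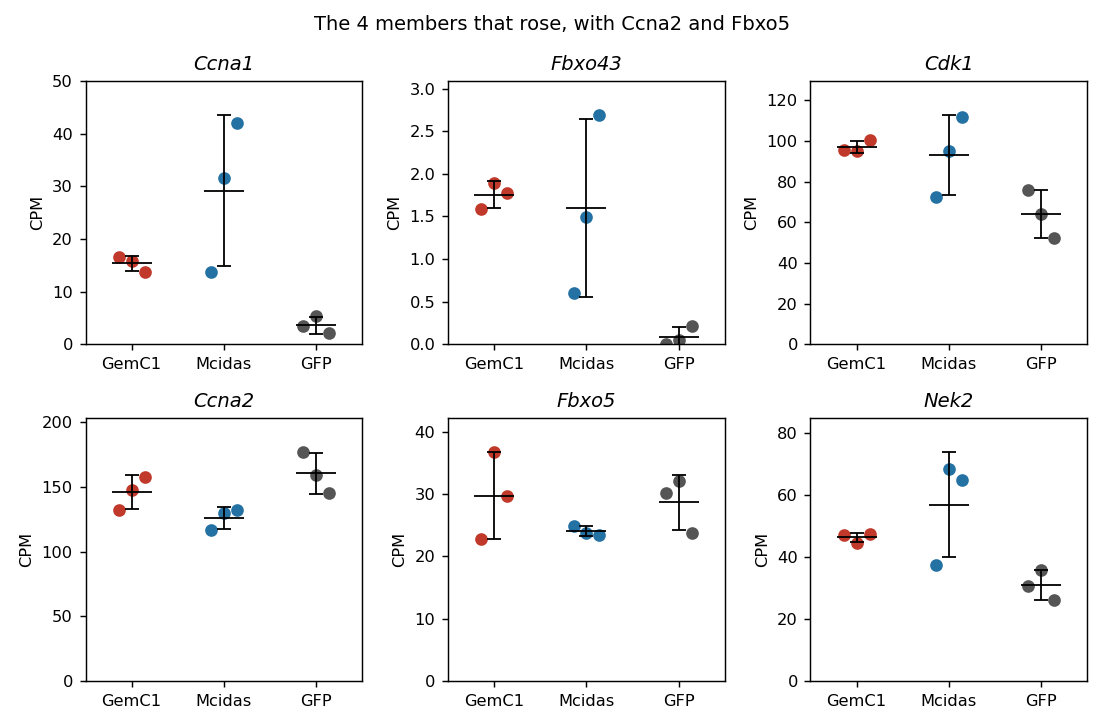
CPM in each library (points) of the GemC1, Mcidas and GFP groups, with the group mean and SD (n = 3), for the 4 called genes and for Ccna2 and Fbxo5, the counterparts of Ccna1 and Fbxo43. Each GemC1 library lies above each GFP library for the 4 called genes, Mcidas replicate 1 is the lowest Mcidas library for them, and the GemC1 and GFP libraries overlap for Ccna2 and Fbxo5.

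The upstream sequences of Cdk1 and Nek2 are shown because many genes of G2 and mitosis are controlled through CCAAT boxes, bound by NF-Y, and the cell cycle genes homology region (CHR), bound by the MuvB complex. Sequences are from RefSeq (build GRCm38.p6) and hold the 250 bases before the start that RefSeq annotates, 5′ to 3′ on the gene's strand. The GENCODE gene models used here for exon lengths start further upstream. The last 26 bases of the Cdk1 sequence and the last 29 of the Nek2 sequence therefore lie inside those genes. Capitals mark CCAAT or its reverse complement, the CHR (TTTGAA or TTCGAA) and the E2F motif (TTTCGCGC or TTTGGCGC), searched on both strands. Cdk1 is at chr10:69352913-69353162 (minus strand) and Nek2 at chr1:191821223-191821472 (plus strand).
Cdk1: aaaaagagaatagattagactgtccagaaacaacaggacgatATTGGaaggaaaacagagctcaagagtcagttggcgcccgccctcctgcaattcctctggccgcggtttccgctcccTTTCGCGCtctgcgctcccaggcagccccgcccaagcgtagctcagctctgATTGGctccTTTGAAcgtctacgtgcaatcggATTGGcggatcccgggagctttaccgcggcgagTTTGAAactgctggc
Nek2: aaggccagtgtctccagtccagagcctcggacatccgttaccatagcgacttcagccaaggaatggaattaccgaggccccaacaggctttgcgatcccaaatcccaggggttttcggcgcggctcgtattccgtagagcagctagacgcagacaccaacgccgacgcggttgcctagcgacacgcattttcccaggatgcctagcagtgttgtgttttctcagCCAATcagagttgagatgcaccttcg

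The Cdk1 sequence held 3 CCAAT boxes beginning at -208, -80 and -48 from the start, 2 CHR motifs at -71 and -15 and 1 E2F motif at -131. Nek2 held 1 CCAAT box at -26, and neither a CHR nor an E2F motif in these letters. For Ccna1, the 250 bases before the RefSeq start lie wholly inside the gene as GENCODE annotates it, and they are not shown. Windows of 300 bases (250 before and 50 after a start) were found for 39 of the 47 genes, 44 windows in all, and their upstream part lay outside the GENCODE gene for 23 windows, partly inside it for 17 and wholly inside it for 4. CCAAT was present in 37 of the 44 (84.1%), against 37.4% of all 32851 windows, and the CHR in 31 (70.5%), against 19.2%. The E2F motif was present in 2 (4.55%), against 0.813%. A match describes the letters and does not show binding, and windows of 1 gene can overlap.

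Ccna1 (ENSMUSG00000027793, mm10 chromosome 3, 55045469 to 55055501) encodes cyclin A1, the cyclin A of male germ cells. It had 468, 465 and 420 counts in GemC1 libraries and 477, 1038 and 972 counts in Mcidas libraries, against 115, 218 and 72 counts in GFP libraries. In CPM these averaged 15.4 ± 1.39 in GemC1, 29.1 ± 14.3 in Mcidas and 3.63 ± 1.61 in GFP libraries (SD, n = 3 each). Each of the 6 libraries with a factor was above each GFP library, and Mcidas replicate 1, at 13.7 CPM, sat next to the lowest GemC1 library, at 13.8 CPM. The log2 fold change was 2.07 ± 0.38 (SE) in GemC1 against GFP (edgeR quasi-likelihood test, adjusted p = 0.00811) and 2.99 ± 0.39 in Mcidas against GFP (adjusted p = 0.000493). The direct comparison of GemC1 with Mcidas gave -0.92 ± 0.36, with a 95% interval of -1.70 to -0.14, and was not called (adjusted p = 0.303). With Mcidas replicate 1 and GFP replicate 3 both left out, a choice made after seeing the data, that difference was -1.27 (adjusted p = 0.0355).

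Ccna1 also held a different rank within the set. Its level per kb of exon was 8.37 ± 0.756 CPM per kb in GemC1, 15.9 ± 7.81 in Mcidas and 1.98 ± 0.878 in GFP libraries (SD, n = 3 each), which ranked it at 34, 20 and 46 of the 47 genes. Ccna2, cyclin A2 of the somatic cell cycle, had 132, 148 and 158 CPM in GemC1 libraries and 117, 129.6 and 132 CPM in Mcidas libraries, against 177, 159 and 146 CPM in GFP libraries. All Mcidas libraries were below all GFP libraries for Ccna2, and the GemC1 libraries overlapped the GFP libraries. The log2 fold change of Ccna2 was -0.35 ± 0.10 in Mcidas (adjusted p = 0.0717) and -0.14 ± 0.10 in GemC1 (adjusted p = 0.47), neither called by edgeR. DESeq2 called Ccna2 lower in Mcidas (adjusted p = 0.0455), as did edgeR without the low-count filter (adjusted p = 0.0217).

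The make-up of the cyclin A pair differed between the groups. Per exon length, Ccna1 made up 21.8, 19.2 and 16.3% of the sum of Ccna1 and Ccna2 in GemC1 libraries and 20.8, 35.2 and 41.5% in Mcidas libraries, against 4.08, 6.97 and 3.2% in GFP libraries. Every library with a factor was above every GFP library in this share, which was formed after the values were seen and carries no test. The same share for cyclin B, Ccnb1 of Ccnb1 and Ccnb2, was 36.4, 31 and 32.9% in GemC1, 32.8, 38.8 and 36.9% in Mcidas and 35.6, 37.9 and 35.3% in GFP libraries, with overlapping groups. Of Ccna1's exon bases 10.1% overlap the antisense gene 4931419H13Rik, which had at most 3 counts in any library.

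Fbxo43 (ENSMUSG00000048230, chromosome 15, 36150060 to 36164884) encodes EMI2, the APC/C inhibitor that holds mature eggs in metaphase. It had 45, 56 and 54 counts in GemC1 libraries and 21, 49 and 62 counts in Mcidas libraries, against 0, 2 and 7 counts in GFP libraries. In CPM these were 1.59, 1.9 and 1.78 in GemC1, 0.605, 1.49 and 2.69 in Mcidas, and 0, 0.0491 and 0.21 in GFP. No library with a factor overlapped a GFP library, and 2 of the 3 GFP libraries were under the floor of 3 counts.

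The fitted log2 fold change of Fbxo43 was 4.31 ± 0.79 in GemC1 (adjusted p = 0.00683) and 4.16 ± 0.79 in Mcidas (adjusted p = 0.00707). Its 95% intervals, 2.59 to 6.04 and 2.44 to 5.89, were wide at these counts, and the fitted value of so low a gene depends on the fit's handling of zeros. The gene reached the low-count filter through the GemC1 and Mcidas libraries. It remained the lowest of the 47 genes per kb of exon in all 3 groups. Its share of the summed Fbxo43 and Fbxo5 level was 3.35, 2.5 and 2.88% in GemC1 and 1.19, 3.02 and 5.38% in Mcidas, against 0, 0.0758 and 0.437% in GFP, so Fbxo5 made up most of the pair in every library.

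Cdk1 (ENSMUSG00000019942, chromosome 10, 69335146 to 69352938) encodes the kinase that drives entry into mitosis. It had 95.8, 95.1 and 100.5 CPM in GemC1 libraries and 72.6, 94.9 and 112 CPM in Mcidas libraries, against 75.8, 63.9 and 52.3 CPM in GFP libraries. The GemC1 libraries were all above the GFP libraries, while Mcidas replicate 1 lay inside the GFP range. The log2 fold change was 0.60 ± 0.15 in GemC1 (1.52-fold, adjusted p = 0.0408). It was 0.54 ± 0.15 in Mcidas (95% interval 0.21 to 0.87, adjusted p = 0.0787), which was not called.

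The Cdk1 call in GemC1 lay close to the threshold. It was lost in 7 of 17 alternatives: without any 1 of the GemC1 libraries (adjusted p = 0.0872, 0.0914 and 0.103), without Mcidas replicate 2 (0.0656), without GFP replicate 2 (0.127) or 3 (0.182) and with the replicate number as a block (0.0877). In Mcidas, Cdk1 was called without Mcidas replicate 1 (log2 fold change 0.70, adjusted p = 0.00784) and without GFP replicate 1 (adjusted p = 0.044). It was also called by DESeq2 (adjusted p = 0.0143) and with Mcidas replicate 1 and GFP replicate 3 both left out (adjusted p = 0.0153). GemC1 and Mcidas differed by 0.06 ± 0.15 in log2, with a 95% interval of -0.27 to 0.39.

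Nek2 (ENSMUSG00000026622, chromosome 1, 191821444 to 191833050) encodes a kinase that separates the centrosomes before mitosis. It had 47.1, 44.6 and 47.3 CPM in GemC1 libraries and 37.4, 68.4 and 64.8 CPM in Mcidas libraries, against 30.6, 35.9 and 26.2 CPM in GFP libraries. Both groups with a factor lay wholly above the GFP libraries, with Mcidas replicate 1 nearest to them. The log2 fold change was 0.88 ± 0.19 in Mcidas (1.84-fold, adjusted p = 0.0175) and 0.58 ± 0.19 in GemC1 (95% interval 0.17 to 0.997, adjusted p = 0.106). The difference of GemC1 from Mcidas, -0.29 ± 0.19, was not called (adjusted p = 0.543).

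The Nek2 call in Mcidas was lost in 5 of 17 alternatives, with adjusted p values of 0.108 without Mcidas replicate 2, 0.0945 without Mcidas replicate 3, 0.0753 without GFP replicate 1, 0.0966 without GFP replicate 3 and 0.0775 with only the Mcidas and GFP libraries in the fit. In GemC1, Nek2 was called higher in 4 of 17 alternatives. DESeq2 called it (adjusted p = 0.0347), as did edgeR with only the GemC1 and GFP libraries in the fit (adjusted p = 0.0227). It was also called without Mcidas replicate 1 (adjusted p = 0.0122) and with Mcidas replicate 1 and GFP replicate 3 both left out (adjusted p = 0.0398). Of the exon bases of Nek2, 6.6% overlap Gm38037 on the opposite strand, and the kits do not mark strand. Gm38037 had 3.77, 4.98 and 4.11 CPM in GemC1, 2.91, 5.57 and 6.67 CPM in Mcidas, and 2.76, 2.82 and 2.1 CPM in GFP libraries. Its part in the Nek2 result was not tested.

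**Figure D2:**
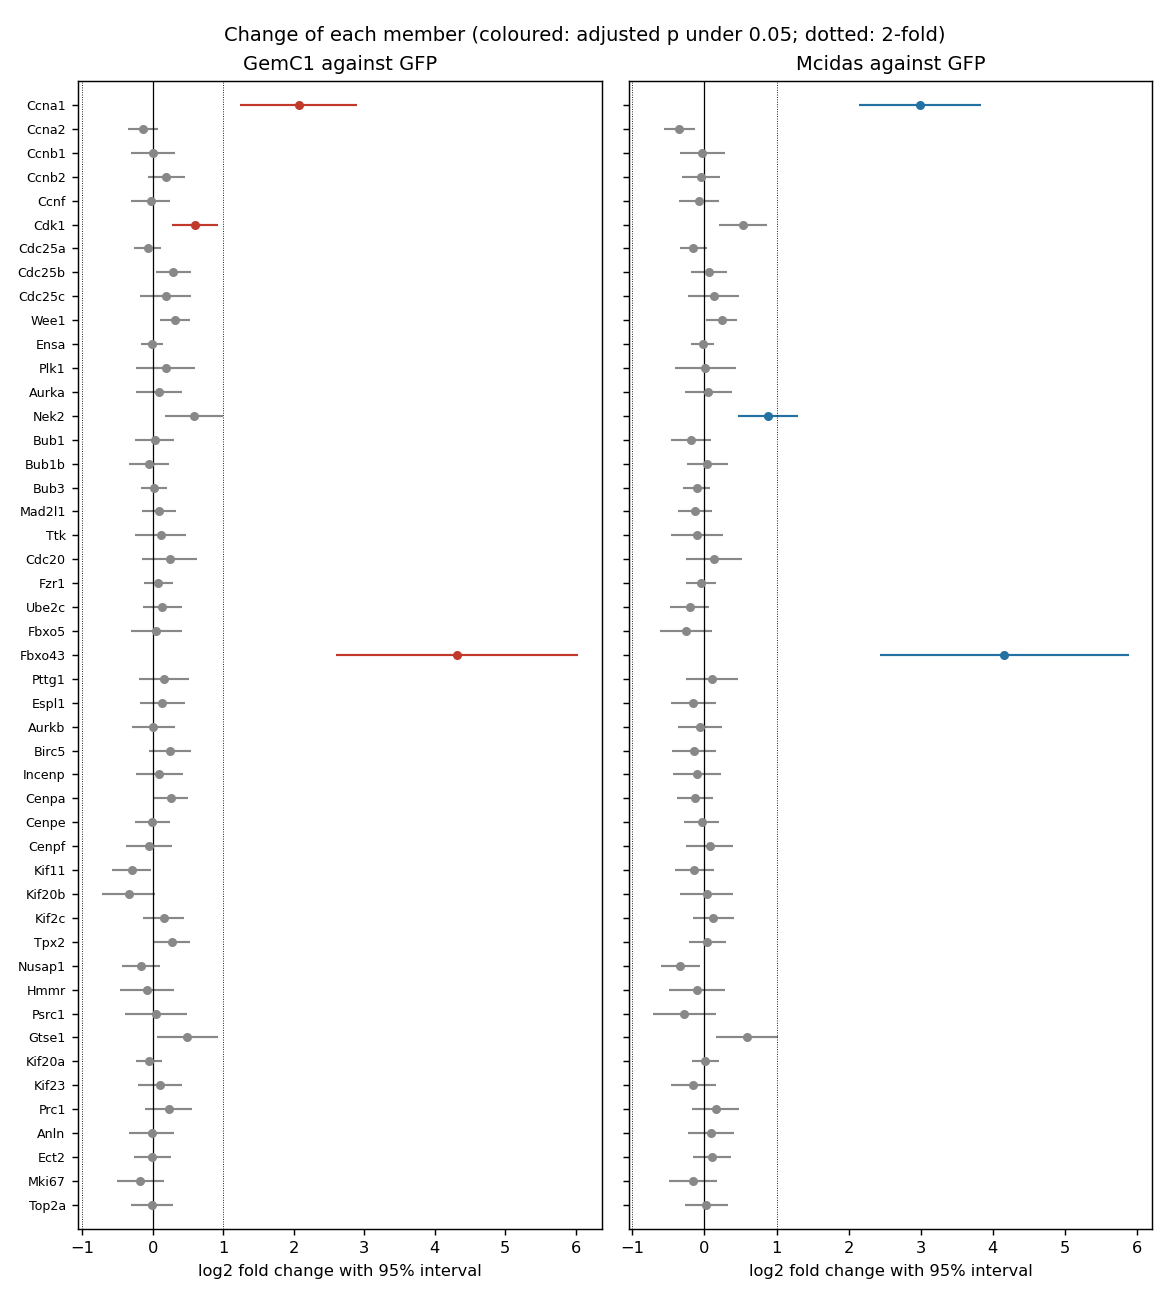
Log2 fold changes (points) with 95% intervals of the 47 genes, in order of role, for GemC1 over GFP (left) and Mcidas over GFP (right). Coloured points were called at an adjusted p under 0.05 and dotted lines mark a 2-fold change; the intervals of Ccna1 and Fbxo43 lie wholly above 2-fold in both panels.

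The CDK1 group of 11 genes also holds the cyclins, the CDC25 phosphatases, Wee1 and Ensa. Of the 11, 2 were called in GemC1 (Ccna1 and Cdk1) and 1 in Mcidas (Ccna1), beside 5.19% and 4.35% of all genes tested. Ensa, an inhibitor of the phosphatase that opposes CDK1, was the most abundant in CPM, with 166, 179 and 179 CPM in GemC1, 179, 167 and 172 CPM in Mcidas, and 173, 174 and 181 CPM in GFP libraries. All 3 groups overlapped for Ensa, and its log2 fold change was -0.01 ± 0.07 in GemC1 and -0.03 ± 0.07 in Mcidas. Ccnb1, cyclin B1, had 75.2, 72.3 and 80.4 CPM in GemC1, 54.6, 81.9 and 86.5 CPM in Mcidas, and 77.3, 81.2 and 69.4 CPM in GFP libraries, again with full overlap. Its log2 fold changes were 0.00 ± 0.14 in GemC1 and -0.03 ± 0.14 in Mcidas.

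Wee1, the kinase that holds CDK1 inactive, had 55.7, 58 and 55.7 CPM in GemC1 and 51, 55.3 and 54.1 CPM in Mcidas, against 48.2, 48.1 and 39.4 CPM in GFP libraries. Both groups with a factor were wholly above the GFP libraries. The log2 fold change was 0.32 ± 0.10 in GemC1 (edgeR adjusted p = 0.0872) and 0.24 ± 0.10 in Mcidas (adjusted p = 0.314). DESeq2 called Wee1 higher in GemC1 (adjusted p = 0.0365). Cdc25b, a phosphatase that activates CDK1, was 0.29 ± 0.11 in GemC1 and 0.06 ± 0.11 in Mcidas on the same scale, while Cdc25a and Cdc25c were between -0.15 and 0.18.

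Of the remaining mitotic kinases, Plk1 had 56.3, 54.8 and 68.2 CPM in GemC1, 36.9, 55 and 68 CPM in Mcidas, and 62.2, 52.3 and 43.6 CPM in GFP libraries. Its groups overlapped, with log2 fold changes of 0.18 ± 0.19 in GemC1 and 0.01 ± 0.19 in Mcidas. Aurka, the kinase of the spindle poles, was 0.09 ± 0.15 in GemC1 and 0.05 ± 0.15 in Mcidas. PLK1 and Aurora A act with NEK2 at the centrosome, and neither of their genes was called.

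None of the 5 spindle checkpoint genes (Bub1, Bub1b, Bub3, Mad2l1, Ttk), which delay anaphase until chromosomes are attached, was called by edgeR or by DESeq2 in any comparison. An unadjusted p under 0.05 was found for 0 of the 5, beside 19.5% (GemC1), 12.6% (Mcidas) and 13% (GemC1 against Mcidas) of all genes tested. The log2 fold changes of the 5 lay between -0.05 and 0.12 in GemC1 and between -0.19 and 0.04 in Mcidas. Bub3, the most abundant in CPM, had 210, 216 and 205 CPM in GemC1, 176, 189 and 213 CPM in Mcidas, and 222, 198 and 202 CPM in GFP libraries. The groups overlapped, and the log2 fold change was 0.02 ± 0.09 in GemC1 and -0.11 ± 0.09 in Mcidas. Mad2l1 was 0.09 ± 0.11 in GemC1 and -0.13 ± 0.11 in Mcidas, and Bub1 was 0.03 ± 0.13 in GemC1 and -0.19 ± 0.13 in Mcidas.

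Of the 7 genes that activate, inhibit or are targeted by the APC/C, Fbxo43 was called in both comparisons with GFP and the other 6 in neither. The share called over all genes tested was 5.19% in GemC1 and 4.35% in Mcidas. Cdc20, the early activator, had the highest level of the 47 genes per kb of exon in each group, at 55.3 ± 6.15 in GemC1, 51.5 ± 14.54 in Mcidas and 46.8 ± 6.66 CPM per kb in GFP libraries (SD, n = 3 each). Its log2 fold change was 0.24 ± 0.18 in GemC1 and 0.13 ± 0.18 in Mcidas. Fzr1, the late activator, had 193, 162.5 and 182 CPM in GemC1, 148.5, 164 and 180 CPM in Mcidas, and 181, 157 and 170 CPM in GFP libraries. Its groups overlapped, with log2 fold changes of 0.08 ± 0.10 in GemC1 and -0.04 ± 0.10 in Mcidas. Fbxo5, Ube2c (the E2 enzyme of the complex), Pttg1 (securin) and Espl1 (separase) lay between 0.05 and 0.16 in GemC1 and between -0.26 and 0.10 in Mcidas.

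**Figure D3:**
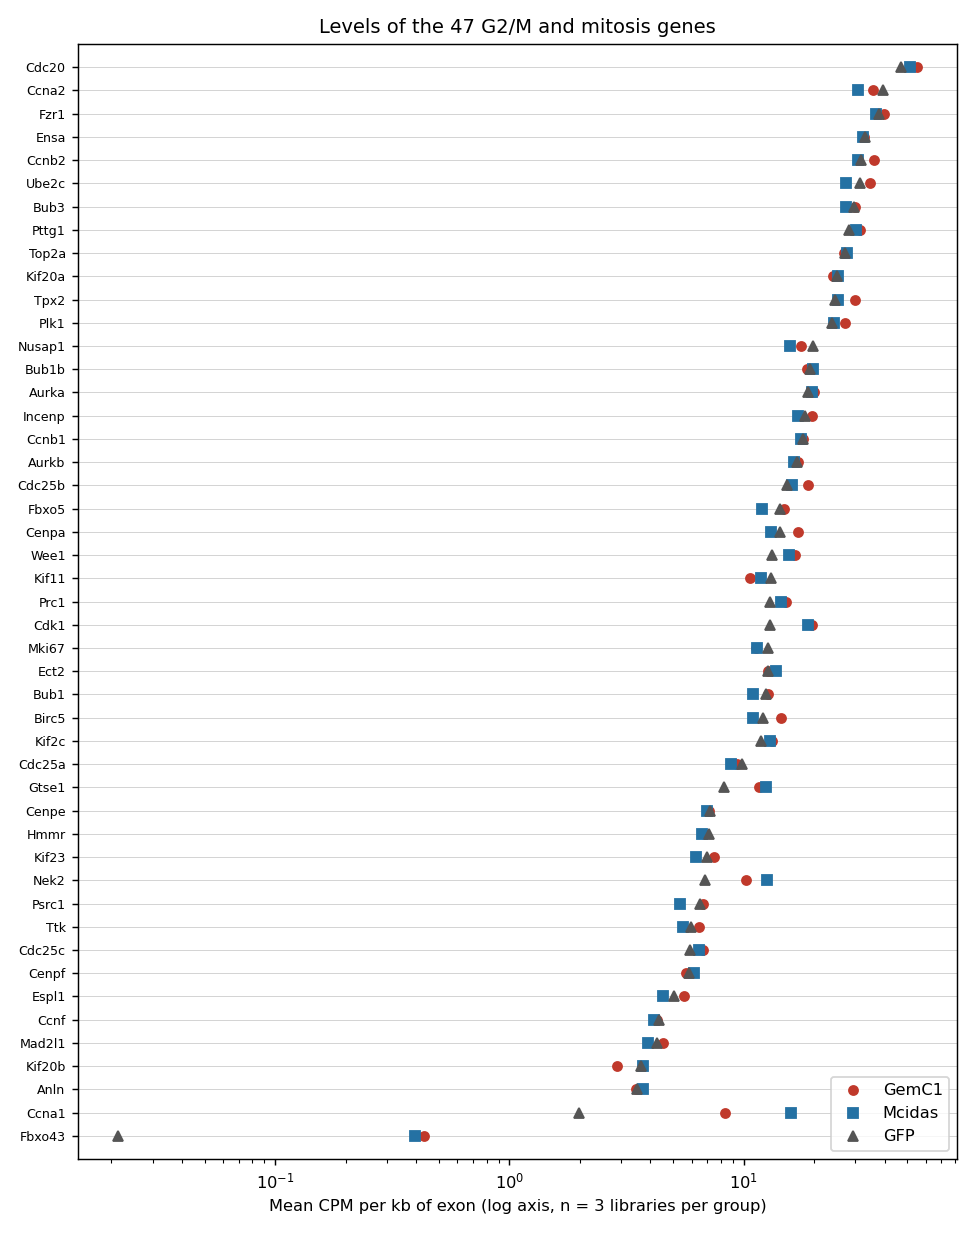
Mean CPM per kb of exon (log axis, n = 3 libraries per group) of the 47 genes in GemC1, Mcidas and GFP libraries, ordered by the GFP level. Cdc20 is at the top and Fbxo43 at the bottom, and Ccna1 shows the widest gap between groups above Fbxo43.

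The 6 genes of the centromere and the chromosomal passenger complex (Aurkb, Birc5, Incenp, Cenpa, Cenpe, Cenpf) included 0 called by edgeR or DESeq2. At an unadjusted p under 0.05 there was 1 in GemC1 and 0 in Mcidas, beside 19.5% and 12.6% of all genes tested. Cenpa, the histone variant that marks centromeres, had 91.1, 107.5 and 102 CPM in GemC1, 67.3, 79.4 and 82.7 CPM in Mcidas, and 93.4, 85.2 and 72.7 CPM in GFP libraries. All GemC1 libraries were above all Mcidas libraries, and each of these groups overlapped GFP. Its log2 fold change was 0.26 ± 0.11 in GemC1 (adjusted p = 0.228) and -0.13 ± 0.11 in Mcidas (adjusted p = 0.741). Cenpf, a kinetochore protein and the most abundant of the 6 in CPM, had 72.2, 86.3 and 104 CPM in GemC1, 74.5, 106 and 105 CPM in Mcidas, and 94.1, 95.5 and 81 CPM in GFP libraries, with all groups overlapping and log2 fold changes of -0.05 ± 0.15 in GemC1 and 0.07 ± 0.15 in Mcidas.

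Of the 8 spindle motor and microtubule genes, 0 were called by edgeR or DESeq2 in any comparison. At an unadjusted p under 0.05 there were 3 in GemC1 and 2 in Mcidas, beside 19.5% and 12.6% of all genes tested. Gtse1, a microtubule-binding protein made in G2, had 35.6, 25.8 and 34 CPM in GemC1 and 23.4, 35.3 and 43.9 CPM in Mcidas, against 25, 22 and 20.9 CPM in GFP libraries. The GemC1 libraries were above all GFP libraries, and Mcidas replicate 1 lay inside the GFP range. The log2 fold change was 0.49 ± 0.20 in GemC1 (adjusted p = 0.194) and 0.59 ± 0.20 in Mcidas (adjusted p = 0.165). Without Mcidas replicate 1, Gtse1 was called in Mcidas (log2 fold change 0.81, adjusted p = 0.00815).

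Tpx2, which activates Aurora A on the spindle, had 128, 137 and 153 CPM in GemC1, 102, 118 and 135 CPM in Mcidas, and 129, 116 and 101 CPM in GFP libraries. Its groups overlapped, with 0.28 ± 0.12 in GemC1 (adjusted p = 0.223) and 0.04 ± 0.12 in Mcidas (adjusted p = 0.947) in log2. Kif11, the motor that pushes the spindle poles apart, was -0.30 ± 0.13 in GemC1 (adjusted p = 0.212). Nusap1, a spindle-associated protein, was lower in every GemC1 and every Mcidas library than in any GFP library, at -0.17 ± 0.12 in GemC1 (adjusted p = 0.5) and -0.34 ± 0.12 in Mcidas (adjusted p = 0.233), with no call.

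The 5 genes of the central spindle and cytokinesis and the 2 of chromosome structure included 0 called and 0 with an unadjusted p under 0.05, and DESeq2 called 0. Over all genes tested, 19.5% in GemC1, 12.6% in Mcidas and 13% in GemC1 against Mcidas had an unadjusted p under 0.05. Prc1, which bundles microtubules of the central spindle, had 120, 121 and 135 CPM in GemC1, 89.3, 123 and 145 CPM in Mcidas, and 119, 112 and 90 CPM in GFP libraries. The GemC1 libraries lay narrowly above the GFP libraries, and the log2 fold change was 0.23 ± 0.15 in GemC1 and 0.15 ± 0.15 in Mcidas. Kif23, a motor of the central spindle, was 0.10 ± 0.14 in GemC1 and -0.15 ± 0.14 in Mcidas.

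Top2a, the topoisomerase that untangles chromosomes, had 210, 238 and 280 CPM in GemC1, 198.5, 261 and 287 CPM in Mcidas, and 263, 254 and 218 CPM in GFP libraries. Mki67, the proliferation marker that coats mitotic chromosomes, had 87.3, 123 and 131 CPM in GemC1, 99.2, 111 and 135.5 CPM in Mcidas, and 125, 146 and 115 CPM in GFP libraries. The groups overlapped for both genes. In log2, Top2a differed by -0.01 ± 0.14 in GemC1 and 0.02 ± 0.14 in Mcidas, and Mki67 by -0.18 ± 0.15 in GemC1 and -0.16 ± 0.15 in Mcidas.

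Across the 43 genes without a call, the log2 fold changes lay between -0.34 and 0.49 in GemC1 and between -0.35 and 0.59 in Mcidas. The 95% interval stayed within a 2-fold change in either direction for all 43 in GemC1 and for 42 in Mcidas, the exception being Gtse1, whose upper bound was 1.02. The median half-width of these intervals over all 47 genes was 0.30 on the log2 scale, and those of Ensa were the narrowest in both comparisons, at -0.17 to 0.15 in GemC1 and -0.18 to 0.13 in Mcidas. Groups without overlap were found for 8 members higher and 1 lower in GemC1 (13.2% and 11.7% of all genes tested) and for 4 higher and 2 lower in Mcidas (10.7% and 8.87%). RNA of sorted populations does not separate a change in the share of cells in mitosis from a change in RNA per cell.

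GemC1 and Mcidas were then compared directly. None of the 47 genes was called by edgeR or DESeq2, 4 had an unadjusted p under 0.05 (13% of all genes tested), and edgeR called 0.0511% of all genes tested (0.0153% higher and 0.0358% lower in GemC1). DESeq2 called 1.27% of its genes higher and 2% lower. The median log2 difference was 0.07, with 35 genes higher in GemC1 (74.5%, against 49.4% of all genes tested). Mcidas replicate 1 was the lowest Mcidas library for 41 of the 47 genes. How far the share of 74.5% rests on that library was not tested. Of the 47, 6 (Wee1, Mad2l1, Ube2c, Espl1, Birc5 and Cenpa) were higher in every GemC1 library than in any Mcidas library and 0 were lower. The shares of all genes tested were 9.07% and 7.64%, so the 6 are not far from the background. For Wee1 the difference was only 0.08 ± 0.10 in log2 (adjusted p = 0.777). Cenpa differed by 0.39 ± 0.11 (95% interval 0.15 to 0.63, adjusted p = 0.202) and Birc5, survivin of the chromosomal passenger complex, by 0.39 ± 0.14 (adjusted p = 0.259).

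The groups overlapped in the summed level of the set. The 47 genes summed to 3317, 3597 and 3761 CPM in GemC1, to 2854, 3473 and 3802 CPM in Mcidas, and to 3624, 3470 and 3067 CPM in GFP libraries. Mcidas replicate 1 was the lowest of the 3 Mcidas libraries for 41 of the 47 genes and the lowest of all 9 libraries for 25, while GFP replicate 3 was the lowest of its group for 41 and of all libraries for 10. Mcidas replicate 3 was the highest of all libraries for 17. The 43 uncalled genes had median log2 ratios to their GFP mean of -0.02, 0.06 and 0.11 in GemC1, of -0.26, 0.01 and 0.11 in Mcidas, and of 0.10, 0.04 and -0.17 in GFP libraries. The median coefficient of variation of the 47 genes was 9.04% in GemC1, 16.8% in Mcidas and 10.9% in GFP.

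**Figure D4:**
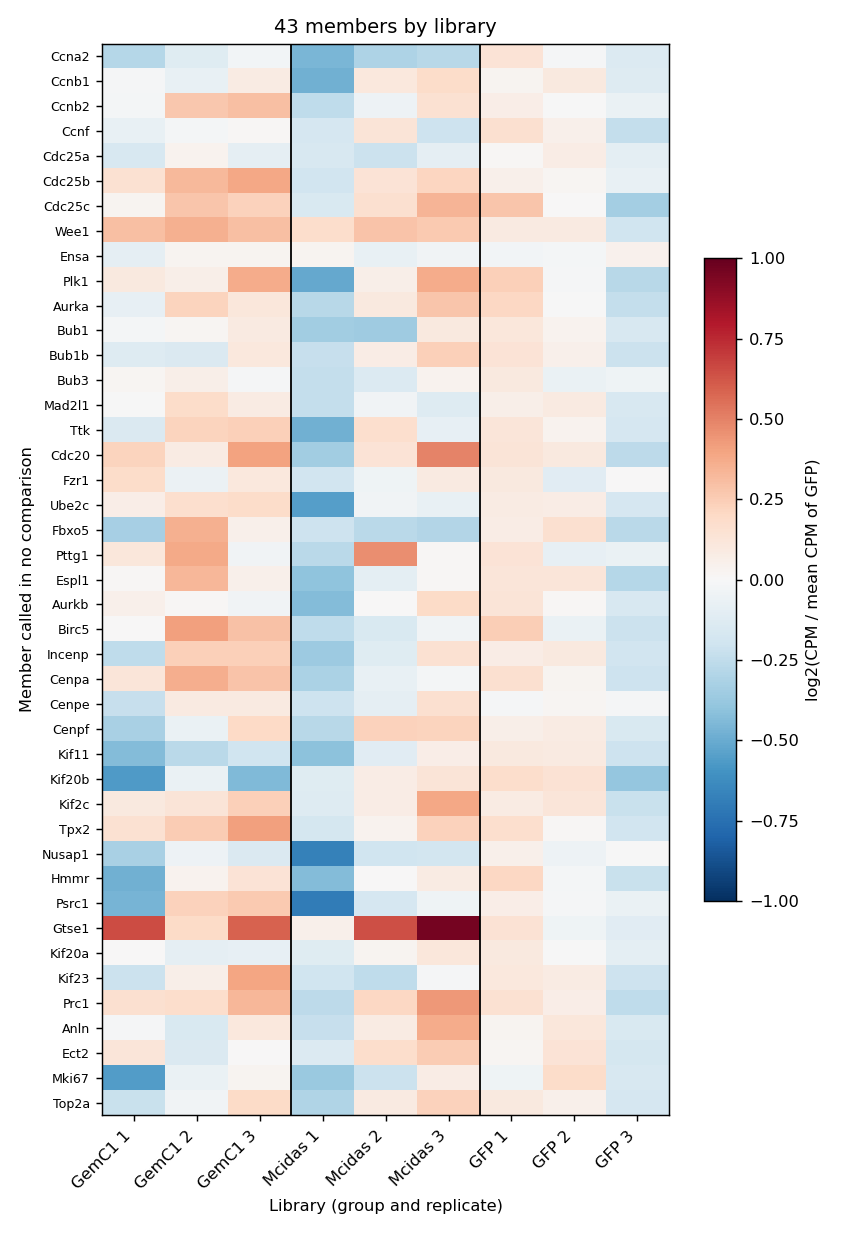
Colours give the log2 ratio of CPM to the mean CPM of the GFP libraries for the 43 genes called in no comparison (rows, in order of role) in the 9 libraries (columns). Mcidas replicate 1 and GFP replicate 3 are below the GFP mean (blue) in most rows, and Gtse1 has the strongest red, in Mcidas replicate 3.

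Summed markers of some other cell types differed between groups or libraries too. Summed radial glia markers (13 genes) were 2009, 2151 and 2103 CPM in GemC1, 1337, 1768 and 1769 CPM in Mcidas, and 1679, 1750 and 1260 CPM in GFP libraries, lowest in Mcidas replicate 1 and GFP replicate 3 like the mitotic genes. Of these 13, Mfge8 rose in GemC1 and Hes5 fell in Mcidas. Among all genes tested, edgeR called 3.86% higher and 1.32% lower in GemC1, and 4.03% higher and 0.327% lower in Mcidas. Excitatory neuron markers (10) were 4450 to 4963 CPM in GemC1, 4725 to 5511 CPM in Mcidas and 5482 to 6425 CPM in GFP libraries, highest in GFP replicate 3, and Dcx was among those that fell in GemC1. Intermediate progenitor markers (8) were 1807 to 1974 CPM in GemC1, 1521 to 2027 CPM in Mcidas and 2017 to 2022 CPM in GFP libraries, and 1, Neurog2, fell in GemC1. Multiciliated cell markers (8) were 490.6 to 616 CPM in GemC1, 485 to 842 CPM in Mcidas and 79.3 to 94.1 CPM in GFP libraries, and 7 of the 8 rose with each factor.

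Microglia and macrophage markers (14, of which 12 were tested) were 76.3 to 109 CPM in GemC1, 48.7 to 69.7 CPM in Mcidas and 32.1 to 45.4 CPM in GFP libraries. Of the 12, 9 rose in GemC1 and 2 in Mcidas, beside 3.86% and 4.03% of all genes tested. Mrc1 and Pf4, markers of macrophages at the brain's borders, were too low to be tested. Interneuron markers were 145 to 210 CPM in GemC1, 135 to 229 CPM in Mcidas and 133 to 194 CPM in GFP libraries. Of the 6, 0 were called by edgeR or had an unadjusted p under 0.05 in any comparison. Over all genes tested, 19.5% in GemC1, 12.6% in Mcidas and 13% in GemC1 against Mcidas had such an unadjusted p. Endothelial, erythroid, and pericyte and meningeal markers summed to at most 26.9 CPM in any library, and the endothelial markers Kdr and Tek were at 0 in all GemC1 libraries. The part of any of these cell types in the results for the mitotic genes was not tested.

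**Figure D5:**
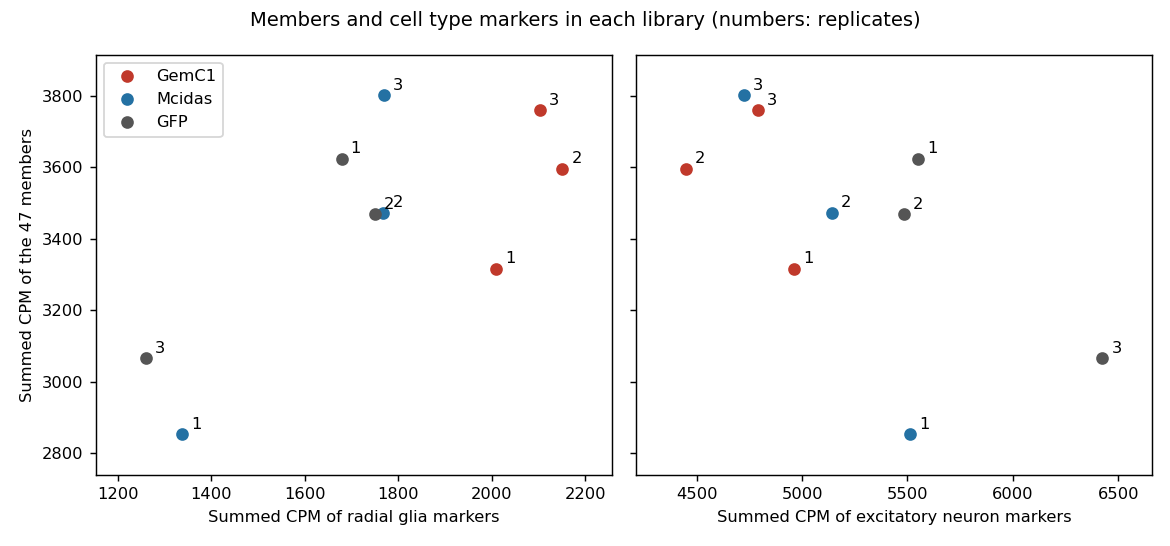
Summed CPM of the 47 genes (vertical axis) against the summed CPM of radial glia markers (left) and of excitatory neuron markers (right), 1 point a library, coloured by group and numbered by replicate. Mcidas replicate 1, at 2854 CPM, and GFP replicate 3, at 3067 CPM, are lowest for the 47 genes and also lowest for radial glia markers.

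A further 71 genes of G2 and mitosis outside the 47 (15 APC/C subunits and E2 enzymes, 13 kinetochore genes, 8 condensin genes and 35 others) were counted in the same fit. edgeR called 0 of the 71 in any comparison, beside 5.19% (GemC1), 4.35% (Mcidas) and 0.0511% (GemC1 against Mcidas) of all genes tested. At an unadjusted p under 0.05 there were 12 in GemC1, 8 in Mcidas and 11 in GemC1 against Mcidas, beside 19.5%, 12.6% and 13% of all genes tested. DESeq2 called 1 higher and 2 lower in GemC1 (5.5% and 3.1% of its genes) and 2 higher and 0 lower in Mcidas (4.7% and 0.496%). It called 1 higher and 1 lower in GemC1 against Mcidas (1.27% and 2%). Their median log2 fold change was 0.09 in GemC1 and 0.00 in Mcidas. Of the 71, 71.8% were positive in GemC1 and 50.7% in Mcidas, against 49.9% and 45% of all genes tested. In GemC1 against Mcidas, 77.5% of the 71 were higher in GemC1, against 49.4% of all genes tested. Nearest to a call were Ska2, a kinetochore protein, at -0.34 in GemC1 (edgeR adjusted p = 0.0528), and Ncaph, a condensin subunit, at 0.49 in GemC1 (adjusted p = 0.0603) and 0.48 in Mcidas (adjusted p = 0.0781). Ckap2l, a spindle-pole protein, was 0.54 in GemC1 (adjusted p = 0.148) and 0.64 in Mcidas (adjusted p = 0.118).

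Some members share bases with other genes. Kif20a shared 29.3% of its exon bases with Cdc23, Ube2c 22.8% with Tnnc2 and Cdc25c 12.7% with Gm3550. Ccna2 shared 12.5% with Exosc9 and Prc1 11.1% with Rccd1, and all these partners lie on the opposite strand. How far the overlaps affect the counts of these members was not tested. Cdc25b shared 2.47% with Spef1, a cilium gene that rose in GemC1 (log2 fold change 0.76, adjusted p = 0.0211) and in Mcidas (1.03, adjusted p = 0.00224). Near-copies of Ccnb1 held few counts: 105 at Ccnb1-ps over all 9 libraries, against 21544 at Ccnb1. Ccnb1-ps aligned to 51.7% of the longest Ccnb1 transcript, at up to 99.2% identity. Whether Ccnb1 lost reads through such matches was not tested. Cdk1 and Fbxo43 shared no exon bases with another gene.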

How the data were processed

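The authors deposited unnormalized counts for every Ensembl gene in 9 tables, 1 a library. SMART-Seq v4 amplification started from 10 ng of RNA and Nextera XT from 150 pg of cDNA, per the labels' protocols. Per the submitters' processing notes, the tools were STAR 2.5.2b, HTSeq 0.5.3 and DESeq2 1.8.1 with build mm10; no annotation release or strand setting is given in these sources. Identifiers were matched to GENCODE M21, 53274 of 53379.

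Here the counts were filtered with filterByExpr (minimum count 10, minimum total 15), scaled by TMM (factors 0.96 to 1.04) and tested with edgeR 4.0.16 in R 4.3.3 (robust quasi-likelihood fit of all 9 libraries, group only, two-sided), with Benjamini-Hochberg adjustment over 19572 genes. Errors are SD, or an SE derived from the log2 fold change and the F statistic of the quasi-likelihood test. The 95% intervals are built on that SE and are approximate. A floor of 3 counts was 0.0729 to 0.131 CPM, counting error only. Within each group, counts of the replicates differed beyond counting noise (ratio of chi-square to degrees of freedom 13 to 23.7). The labels do not say whether replicates are separate litters, so the p-values reflect only how these samples spread, which may be technical. Alternatives included DESeq2 1.42.0, other filters and scalings, a replicate block and the removal of each library. Near-copies were sought at 95% identity over 200 bases.

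Full values are given for members called in any comparison and, in each role, for the member with the highest CPM and those with the smallest p against GFP; the other members named were chosen after their values were seen. The members and lists were chosen with earlier results of these data known.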

Additional observations from a re-analysis of the deposited data

How the results depend on the processing

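Across 17 alternatives and 3 comparisons, 2396 member results were recomputed: 13 lost a call, 14 gained one and 0 reversed with a call, while 150 values changed sign without a call in either. Ccna1 in Mcidas and Fbxo43 in both comparisons stayed called in the alternatives run (highest adjusted p 0.032, 0.047 and 0.0486). Fbxo43 passed the low-count filter through the libraries in which it was high, so its staying called is not independent support. Ccna1 in GemC1 was lost without a low-count filter (adjusted p = 0.0934, range 0.000346 to 0.0934). DESeq2 gave 5 members higher in GemC1 and 1 lower in Mcidas, and edgeR without a low-count filter also gave 1 lower in Mcidas. With Mcidas replicate 1 and GFP replicate 3 both left out, an alternative chosen after seeing the data, 5 members were higher in Mcidas, 4 in GemC1, and 1 (Ccna1) was lower in GemC1 than in Mcidas. Leaving out 1 library at a time gave 2 to 5 members higher in Mcidas, the 5 without Mcidas replicate 1, 2 to 4 higher in GemC1, and 0 lower. The cause of these differences in count was not tested. Shares of all genes called were counted for the main fit and DESeq2 only. Member counts under the other alternatives therefore cannot be set beside a background. Same-numbered samples showed no visible shared deviation (correlations -0.074 to 0.046). That check cannot tell whether they were prepared together, and the labels do not say. With the number as a replicate block, 2 members were higher in GemC1 and 3 in Mcidas, and 0 were lower. Depth limits Fbxo43 most, with at most 7 counts in a GFP library.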
